A study of Mus musculus with 4 samples.

Results

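Classical Ccr2 monocytes were studied in 4 single-cell libraries of mouse liver obtained by fine-needle aspiration (FNA). They were chosen by their own transcripts, counted as unique molecular identifiers (UMIs), which tag each captured RNA molecule once. A barcode counted as a kept cell with at least 500 UMIs, at least 300 detected genes and at most 10% mitochondrial UMIs. A kept cell was a member when it held a UMI of Csf1r, a UMI of Ccr2 and a UMI of F13a1 or Chil3. It also had to lack Ace, Treml4, Flt3, Cd209a and Cd79a and to hold fewer than 10 UMIs of Prg4. Of 26825 kept cells among 33198 barcodes, 181 were members, with 27 in P-LC24 and 47 in P-HC24 at week 24, and 71 in I-LC32 against 36 in I-HC32 at week 32. The values of these genes made the selection, so they are given as a description only.

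Male C57BL/6J mice were placed at 7 weeks of age on the FPC diet, which holds fructose, palmitate, cholesterol and trans-fat, and all 4 groups ate it throughout. P-LC24 received 0.05% cholesterol and P-HC24 received 1.25% cholesterol for 24 weeks (Progression, Prog). I-LC32 is the low-cholesterol group at week 32, still on 0.05%. I-HC32 is the high-cholesterol group at week 32, after 24 weeks on 1.25% and a further 8 weeks on 0.05% (Intervention, Int). The label of the cells is non-parenchymal liver. The same 3 mice of each group were sampled at both weeks, and 4 biopsies of each, 12 in all, were pooled into 1 library per condition. Diet, mice and handling of a library therefore cannot be told apart, no difference between conditions was tested, and every interval below is a 95% interval that covers counting error only.

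Classical monocytes are made in the bone marrow and leave it through the chemokine receptor Ccr2. In mice they carry the surface protein Ly6C, and those that enter an inflamed or fatty liver can mature into macrophages, which load antigen onto MHC class II molecules and make complement C1q. Csf1r is the receptor for the growth factor CSF1.

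The libraries held between 50941106 and 89257239 UMIs. The members were deep cells, with a median of 14722 UMIs in P-LC24 against 15631 in P-HC24 and 12714 in I-LC32 against 19285.5 in I-HC32, and their median share of mitochondrial UMIs lay between 2.27% and 3.33%. A barcode was found in more than 1 library in 134 cases, which touched 2 members, and in 0 cases was it a member in both libraries. Scrublet placed 4 members in its highest-scoring share, and they were kept.

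The 4 marker genes were present in all libraries. Levels are given as CPM, the UMIs of a gene summed over the members of a library and scaled to 1000000 UMIs of these cells. Ccr2 (chr9:123901982-123913594, GRCm39) stood at 1074 CPM in P-LC24 against 902 in P-HC24 and at 991 in I-LC32 against 865 in I-HC32. F13a1, the A chain of coagulation factor XIII (chr13:37051152-37234277), stood at 1144, 674, 832 and 731 CPM in the same order. P-LC24 was the highest library for both, and both were used to choose the cells.

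The other markers spread more widely. Ly6c2, which encodes a Ly6C protein and played no part in the selection (chr15:74980003-74988467), stood at 735 CPM in P-LC24 against 704 in P-HC24 and at 1014 in I-LC32 against 256 in I-HC32. Chil3, a chitinase-like protein of monocytes and macrophages (chr3:106054870-106074880), stood at 942, 716, 920 and 272 CPM in that order. For Ly6c2 and Chil3, I-HC32 was the lowest library. Ly6c2 and Chil3 belong to families of near-identical copies, so their levels are uncertain where reads were shared between copies.

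Of the 181 members, 119 held a UMI of Ly6c2 and 62 held none. The label of classical monocyte was checked with 12 further marker genes that had no part in the selection. All 12 were detected in at least 25% of the members with Ly6c2, against 5 of 12 in the members without it, namely Fn1, Plac8, Itgam, Lyz2 and Cd14. Plac8, a small protein abundant in classical monocytes, was found in 96.6% of members with Ly6c2 and in 29.0% of those without. Haptoglobin (Hp) was found in 96.6% and 6.45%. Of 10 markers of patrolling monocytes outside the selection, 7 were also found in at least 25% of the members with Ly6c2, among them Spn, Itgal, Cx3cr1 and Nr4a1, at a summed 1048 CPM against 586 CPM in the members without it. On the classical markers the label held for the members with Ly6c2, while the members without Ly6c2 went against it and are called here by their leading genes.

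The leading gene of the members without Ly6c2 was Retnla, which encodes the secreted protein RELM-alpha and is a known marker of alternatively activated macrophages (chr16:48662895-48664824). Ly6c2 and Retnla were seldom found in the same cell. Ly6c2 without Retnla was found in 117 members, Retnla without Ly6c2 in 48, both in 2 and neither in 14. Of the cells with both, 1 in I-LC32 held 4 UMIs of Ly6c2 and 1 UMI of Retnla, and 1 in I-HC32 held 1 UMI of Ly6c2 and 709 UMIs of Retnla. This division was chosen after the values had been seen, so it carries no test.

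The division was also seen at equal depth. The members with Retnla and no Ly6c2 were deeper, at a median of 25779 UMIs, than those with Ly6c2 and no Retnla, at 12447. Where every member was thinned to 3000 UMIs, Ly6c2 without Retnla was found in 108 of 180 members, Retnla without Ly6c2 in 49 and both in 0. At the same depth, Retnla was found in at most 1.47% of B cells, taken as cells with at least 2 UMIs of Cd79a and no Csf1r (median 5976 to 9056 UMIs), and in at most 2.08% of T cells, taken likewise by Cd3e and Cd3g (median 6411 to 8406 UMIs). In the members the share at 3000 UMIs was 34.8% in P-HC24 and 63.9% in I-HC32. Without thinning, Retnla was found in 3.82% of the B cells of I-HC32. Ly6c2 was found in 1.13% to 1.77% of the B cells at 3000 UMIs, against 77.5% of members in I-LC32 and 30.6% in I-HC32.

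**Figure D1:**
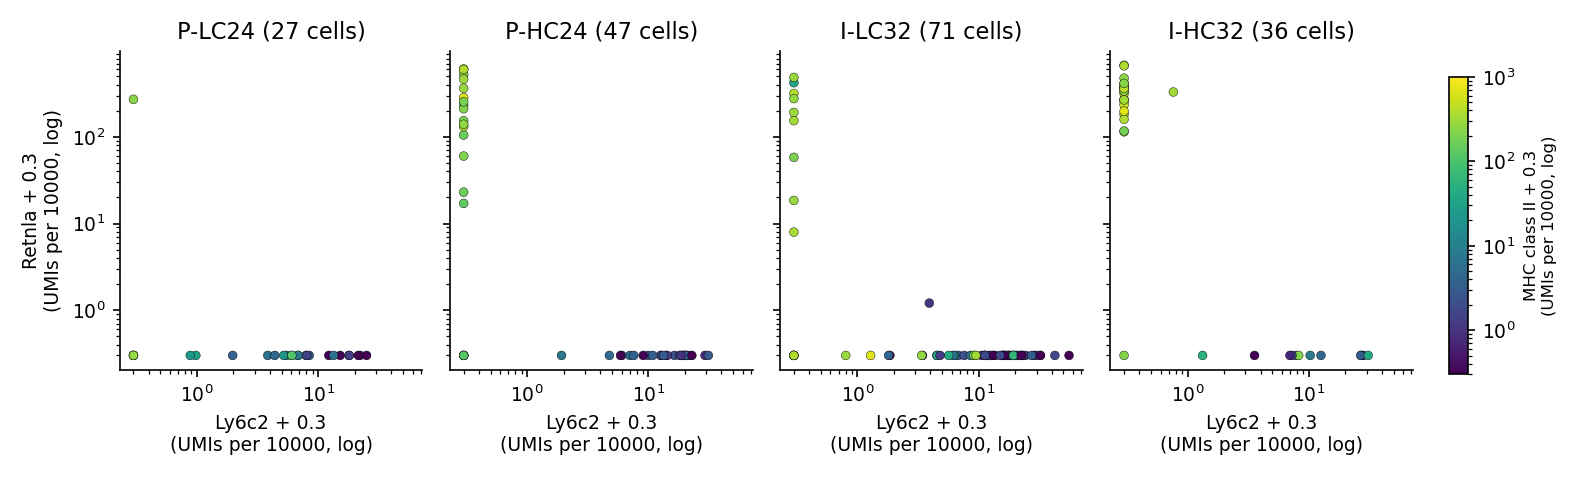
UMIs of Ly6c2 (horizontal axis) and of Retnla (vertical axis) per 10000 UMIs of a cell, with 0.3 added and both axes logarithmic, for each member in each library, coloured by summed UMIs of H2-Aa, H2-Ab1, H2-Eb1 and Cd74 (MHC class II) per 10000 (log colour scale). Of 181 cells, 117 carry Ly6c2 alone, 48 carry Retnla alone, 2 carry both and 14 neither, and high MHC class II is frequent among the cells with Retnla.

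In the plot of Ly6c2 against Retnla most cells lie along one axis or the other. Summed over libraries, the members with Retnla and no Ly6c2 held Ccr2 at 937 CPM and F13a1 at 559 CPM, against 975 and 1079 CPM in those with Ly6c2 and no Retnla. Chil3 stood at 1332 CPM in the cells with Ly6c2 and no Retnla and had 0 UMIs in the Retnla-carrying cells without Ly6c2. Fibronectin (Fn1) was higher in the latter, at 4877 against 1486 CPM.

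Genes of antigen presentation were high in the Retnla-carrying cells. H2-Ab1, the beta chain of an MHC class II molecule, stood at 4772 CPM in them and at 359 CPM in the cells with Ly6c2 and no Retnla. Cd74, the invariant chain that guides class II molecules, stood at 15883 and 1292 CPM. C1qa, a chain of complement C1q, stood at 1947 and 13.5 CPM. Lyz1, a lysozyme gene next to its near-identical copy Lyz2, stood at 6873 and 97.5 CPM. Of the members with Retnla, 98.0% held a UMI of H2-Ab1, against 33.6% of those without Retnla.

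The same difference was seen in every library for many genes. Of 4183 genes compared between members without and with Ly6c2, 108 were at least 2-fold higher without Ly6c2 in all 4 libraries and 81 were at least 2-fold lower. In P-LC24 the members without Ly6c2 were only 5 cells, against 20, 14 and 23 in the other libraries, and of these 5 cells 1 carried Retnla. Among the genes higher without Ly6c2 were Fcrls, a scavenger receptor related to Fc receptors, the tetraspanin Cd81, the lipid transfer protein Pltp and the lipid scavenger receptor Cd36. Fcrls stood at 741 CPM without Ly6c2 and 7.24 CPM with it, and Pltp at 1367 and 52.7 CPM. In P-LC24, Fcrls was found in 20% of the 5 members without Ly6c2. Among those lower without Ly6c2 were complement C3, the matrix proteoglycan versican (Vcan), Hp and the glutathione reductase Gsr. Hp stood at 19.2 CPM without Ly6c2 and 941 CPM with it, and Vcan at 13.5 and 340 CPM. The genes follow from a division of the same cells and are a description of them.

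The makeup of the members differed between the libraries. Members with Ly6c2 and no Retnla made up 81.5% (61.9 to 93.7) in P-LC24 against 57.4% (42.2 to 71.7) in P-HC24 and 78.9% (67.6 to 87.7) in I-LC32 against 33.3% (18.6 to 51.0) in I-HC32. Members with Retnla and no Ly6c2 made up 3.70% (0.0937 to 19.0), 34.0% (20.9 to 49.3), 12.7% (5.96 to 22.7) and 61.1% (43.5 to 76.9) in that order. The intervals are exact Clopper-Pearson intervals. The share of Retnla-carrying members was higher in the high-cholesterol group than in the low-cholesterol group at both weeks, and the intervals of these shares did not overlap at either week. In cells, this was 1 against 16 at week 24 and 9 against 22 at week 32.

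As a share of all kept cells, the members as a whole were scarce in every library. They made up 0.525% (0.346 to 0.763) in P-LC24 against 0.680% (0.500 to 0.903) in P-HC24 and 0.957% (0.748 to 1.21) in I-LC32 against 0.490% (0.343 to 0.677) in I-HC32. The log2 ratio of the shares was 0.37 (-0.34 to 1.11) in Prog, where the intervals of the shares overlapped, and -0.97 (-1.59 to -0.37) in Int, where they did not. In Prog the sign turned to -0.36 (-1.02 to 0.31) when the same rule was applied to cells thinned to 3000 UMIs. The Prog ratio was also negative in members with Ly6c2 (-0.13) and among kept cells with Csf1r and no Cd79a (-0.34). Without the limit on Flt3 and Cd209a it was -0.004. The intervals of these negative ratios all included no difference. In the remaining settings the Prog ratio was positive. It ran from 0.07 without the limit on Ace and Treml4 to 1.21 with a mitochondrial limit of 5%. Restricted to members with Ly6c2, the Int ratio was -2.12.

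Among kept cells with Csf1r and no Cd79a, the members made up 10.2% of 265 cells in P-LC24 against 8.08% of 582 in P-HC24 and 23% of 309 in I-LC32 against 5.39% of 668 in I-HC32. More cells carried Csf1r in the high-cholesterol libraries. Cells with at least 10 UMIs of Prg4, a gene of peritoneal macrophages, numbered 29 in P-LC24 against 345 in P-HC24 and 49 in I-LC32 against 509 in I-HC32.

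**Figure D2:**
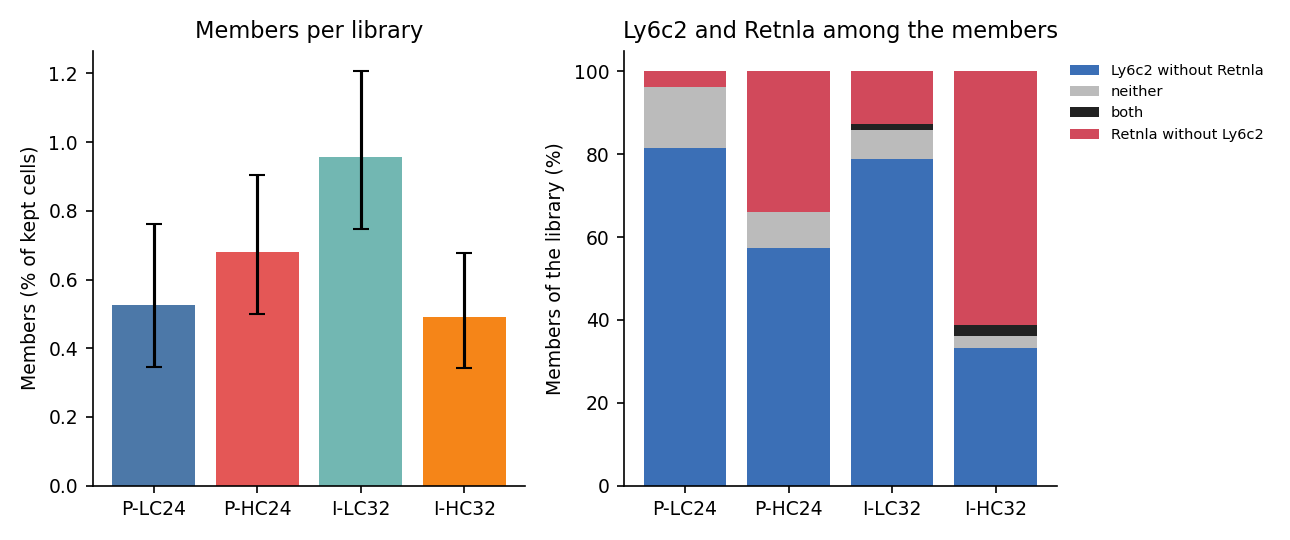
Left, members as a percentage of kept cells in each library, with bars from 0 and exact 95% Clopper-Pearson intervals for counting error; right, percentage of each library's members that held Ly6c2 without Retnla, neither, both or Retnla without Ly6c2. The share of cells was highest in I-LC32 at 0.957%, and Retnla without Ly6c2 made up 34.0% in P-HC24 and 61.1% in I-HC32.

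The edges of the selection were drawn through populated ground. Without the limit on Ace and Treml4, which mark patrolling monocytes, 147 more cells would have entered, of which 115 held Ly6c2 and 56 had a single UMI of either gene. The limit on Flt3 and Cd209a, genes of dendritic cells, alone kept out 67 cells, and that on Cd79a 45. The requirement for F13a1 or Chil3 alone kept out 31 cells, that for Csf1r 18, that for Ccr2 10 and that on Prg4 12. Just inside, 3 members held a single UMI of Ccr2, 9 a single UMI of F13a1 and Chil3 together, and 20 a single UMI of Csf1r. Of the members, 97 held both F13a1 and Chil3, 82 held F13a1 alone and 2 held Chil3 alone.

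Genes were then compared within the members between the high- and the low-cholesterol group at each week. Genes were kept that 10% or more of the members of one library carried and that had 50 UMIs or more in the pair, and a gene counted as higher or lower from 1.5-fold. In Prog (P-HC24 over P-LC24), 3862 genes were compared, of which 9.87% were higher and 18.6% lower in P-HC24, 28.4% in all. In Int (I-HC32 over I-LC32), 4657 genes were compared, of which 10.7% were higher and 15.2% lower in I-HC32, 25.9% in all. These were 381 higher and 717 lower genes in Prog, and 500 and 708 in Int.

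The balance of higher and lower genes rested on the scaling. With factors from the trimmed mean of M-values (TMM), the median ratio in Prog moved by 0.17 on the log2 scale, and 57.6% of the genes past 1.5-fold were higher, against 34.7% by CPM. With median-of-ratios factors the shares higher were 55.3% in Prog, against 34.7%, and 53.5% in Int, against 41.4%. The medians by CPM were -0.09 in Prog and -0.08 in Int on the log2 scale, and ratios below are to be read against them.

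In Prog the genes with the highest ratios were those of the Retnla-carrying cells. Retnla stood at 2052 CPM in P-LC24, all of it from 1 cell, and at 13339 CPM in P-HC24, a log2 ratio of 2.70 (2.60 to 2.80). Lyz1 stood at 152 and 2751 CPM (4.18, 3.82 to 4.57), with 95.2% of its UMIs in P-LC24 in 1 cell. Ltc4s, the enzyme that makes leukotriene C4, stood at 7.22 and 276 CPM (5.26, 3.69 to 7.54). Mrc1, the macrophage mannose receptor, stood at 113 and 602 CPM (2.41, 1.98 to 2.87). The list was completed by the extracellular matrix protein Ecm1 (3.24), Fcrls (2.47), the adhesion receptor Cd226 (2.42) and C1qa (2.29), and 1 cell held between 63.8% and 100% of the P-LC24 UMIs of each of these 8 genes.

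The genes with the lowest ratios in Prog included markers of the Ly6c2-carrying cells such as Gpr141 and Vcan. Ldlrad3, a receptor-like membrane protein, stood at 248 CPM in P-LC24 and 59.6 CPM in P-HC24, a log2 ratio of -2.06 (-2.58 to -1.55). Gpr141, an orphan receptor, stood at 417 and 119 CPM (-1.81, -2.18 to -1.44), and Vcan at 436 and 145 CPM (-1.59, -1.94 to -1.25). Cx3cr1, the fractalkine receptor, stood at 219 and 73.0 CPM (-1.59, -2.08 to -1.10). The others were Dock4, which activates the small GTPase Rac (-1.70), Cd93 (-1.62), Tnfaip2 (-1.60) and the transcription factor Tcf7l2 (-1.58). The sets of cells behind these values were small, at 27 and 47 members.

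In Int, chemokines joined the genes of the Retnla-carrying cells at the top. Ccl24, an eosinophil attractant, stood at 37.4 CPM in I-LC32 and 402 CPM in I-HC32, a log2 ratio of 3.43 (2.93 to 3.96). Ccl7, a ligand of Ccr2, stood at 23.2 and 162 CPM (2.80, 2.14 to 3.51), but 1 cell held 65.2% of its UMIs in I-LC32 and 1 cell 40.7% in I-HC32. Lyz1 stood at 1104 and 7209 CPM (2.71, 2.61 to 2.80). Retnla, close behind, stood at 5867 and 26768 CPM (2.19, 2.15 to 2.23). The others at the top were the lysophosphatidic acid receptor Lpar1 (2.52), Rgs1, a brake on G protein signalling (2.42), the potassium channel Kcnk13 (2.38), Ecm1 (2.36) and Cd81 (2.24).

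At the bottom in Int stood genes of the Ly6c2-carrying cells such as Gpr141 and Ly6a2. Fcgr1, the high-affinity receptor for IgG, had a log2 ratio of -2.32 (-3.24 to -1.51) from 99 and 14 UMIs. Itgal, a chain of the integrin LFA-1, stood at 128 and 30.0 CPM (-2.10, -2.84 to -1.42). The remaining genes were Uck2, a nucleoside kinase (-3.26), the fatty acid carrier Fabp5 (-2.59), Gpr141 (-2.26), the lipid receptor Trem2 (-2.19) and Ly6a2 (-2.03).

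Among the 3774 genes compared at both weeks, 133 were higher and 195 lower in both. The 133 make up 35.6% of the genes higher in Prog and 36.6% of those higher in Int. The 195 make up 28.6% and 36.6% of the lower ones. Another 18 were higher in Prog and lower in Int, which is 4.81% of those higher in Prog. The 32 with the reverse pattern make up 4.69% of those lower in Prog. Beside these, 9.87% of all genes compared in Prog were higher and 18.6% lower. In Int 10.7% of all compared genes were higher and 15.2% lower. The libraries differ between Prog and Int but the mice are the same.

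By function, more MHC class II genes were higher than lower in the high-cholesterol group at both weeks. In Prog 4 of 10 compared genes were higher and 2 lower (median log2 ratio 0.44), and in Int 7 of 10 were higher and 0 lower (median 0.99). H2-Aa, an alpha chain, stood at 848 CPM in P-LC24 against 2791 in P-HC24 and 2308 in I-LC32 against 5082 in I-HC32, with log2 ratios of 1.72 (1.56 to 1.89) in Prog and 1.14 (1.06 to 1.22) in Int. H2-Eb1, a beta chain, stood at 537, 2420, 1917 and 4568 CPM. I-HC32 was the highest library for both genes and P-LC24 the lowest.

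Macrophage differentiation genes were mixed. In Prog 9 of 23 were higher and 5 lower, and in Int 9 of 21 were higher and 3 lower, with medians of -0.13 and 0.17. C1qb, a further C1q chain, stood at 373 CPM in P-LC24 against 1529 in P-HC24 and 753 in I-LC32 against 2576 in I-HC32. Apoe, which carries lipids and marks macrophages, stood at 2110, 1705, 1173 and 576 CPM in that order. It was past 1.5-fold lower in Int (-1.03) and not in Prog (-0.31), where 1 cell held 47.5% of its UMIs in P-LC24 and 1 cell 35.4% in P-HC24.

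Chemokine ligands were higher in Int, where 7 of 9 compared genes were higher and 0 lower (median 1.37). Ccl2, the main ligand of Ccr2, stood at 99.0 CPM in I-LC32 and 365 CPM in I-HC32 (1.88, 1.54 to 2.23). Ccl6 stood at 2343 and 4229 CPM (0.85, 0.77 to 0.93). In Prog 3 of 11 were higher and 4 lower, and the lower ones leaned on few cells. Cxcl9, an interferon-gamma target, had 96 UMIs in P-LC24, of which 94.8% were in 1 cell, and 0 in P-HC24, and Ccl5 stood at 506 and 10.9 CPM with 63.3% of its P-LC24 UMIs in 1 cell.

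Heat shock chaperones were higher in Int in 8 of 14 compared genes and lower in 0 (median 0.79), while in Prog 0 of 9 were past 1.5-fold in either direction (median -0.10). Hsp90ab1, an abundant chaperone, stood at 809 CPM in I-LC32 and 1506 CPM in I-HC32 (0.90, 0.76 to 1.03). Hsph1 stood at 20.2 and 84.4 CPM (2.06, 1.31 to 2.87). Granule and antimicrobial genes were higher in Prog in 7 of 14 and lower in 1 (median 0.59), and in Int 2 of 14 were higher and 5 lower (median -0.44). S100a9, a subunit of the neutrophil protein calprotectin, was among those higher in Prog, at 7.22 and 369 CPM, but 93.7% of its P-HC24 UMIs came from 1 cell. Few genes of oxidative phosphorylation were past 1.5-fold, with 9 of 79 higher and 1 lower in Prog and 0 of 78 higher and 2 lower in Int.

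Type I interferon-stimulated genes differed in Int and hardly in Prog. In Int 19 of 24 compared genes were lower in I-HC32 and 0 higher (median log2 ratio -1.09), against 2 higher and 1 lower of 24 in Prog (median -0.05). Promoters of genes in this list often hold the core of the interferon-stimulated response element, written GAAANNGAAA, to which interferon-activated factors bind. The 250 bases before the start of the canonical transcript that GENCODE marks for each gene were searched (GRCm39, both strands read, overlapping matches counted). The core was found for 18 of 40 genes of the list, which is 45.0%, and for 3.32% of all 21418 protein-coding genes. The promoters of Ifi213, a DNA-sensing family member that had the lowest ratio of the list in Int, and of Rtp4, an interferon-induced transporter protein, are shown with each match in capitals, in the direction of the gene.
Ifi213 (chr1:173426882-173427131, minus strand): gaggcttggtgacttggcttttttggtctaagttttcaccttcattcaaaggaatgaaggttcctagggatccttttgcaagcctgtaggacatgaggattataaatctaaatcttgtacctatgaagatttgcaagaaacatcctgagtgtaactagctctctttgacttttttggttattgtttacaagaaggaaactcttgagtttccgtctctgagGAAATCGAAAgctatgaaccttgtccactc
Rtp4 (chr16:23428396-23428645, plus strand): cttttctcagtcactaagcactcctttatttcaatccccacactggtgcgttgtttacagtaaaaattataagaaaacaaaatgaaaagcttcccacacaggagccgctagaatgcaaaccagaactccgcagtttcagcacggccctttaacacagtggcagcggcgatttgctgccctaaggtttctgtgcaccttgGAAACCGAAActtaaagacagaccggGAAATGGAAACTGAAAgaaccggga

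Ifi213 held 1 match, which begins 30 bases before the start, and Rtp4 held 3, of which 2 overlap. Ifi213 stood at 9.63 CPM in P-LC24 against 36.5 in P-HC24 and 45.5 in I-LC32 against 7.15 in I-HC32, with a log2 ratio of -2.67 (-4.36 to -1.34) in Int. Rtp4 stood at 65.0, 94.9, 84.9 and 35.8 CPM, with 0.54 (-0.10 to 1.23) in Prog and -1.25 (-1.95 to -0.59) in Int. I-HC32 was the lowest library for both. A match of letters is a description of the sequence and says nothing of binding in these cells.

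MHC class II promoters share a different element, an inverted CCAAT box with the core GATTGG. It was found on either strand in the same window of 7 of 14 genes of the MHC class II list and of 16.3% of all protein-coding genes. The interferon core was found in 2 of these 14, and GATTGG in 3 of the 40 interferon-stimulated genes. The promoters of H2-Aa and H2-Eb1 are shown as examples from the list that was higher in Int, with the matches in capitals (CCAATC is the same core on the other strand).
H2-Aa (chr17:34506798-34507047, minus strand): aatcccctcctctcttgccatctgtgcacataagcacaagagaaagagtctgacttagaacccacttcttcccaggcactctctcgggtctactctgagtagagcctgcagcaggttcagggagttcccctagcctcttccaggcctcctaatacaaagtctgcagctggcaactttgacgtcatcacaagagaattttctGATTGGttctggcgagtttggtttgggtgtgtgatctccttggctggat
H2-Eb1 (chr17:34524563-34524812, plus strand): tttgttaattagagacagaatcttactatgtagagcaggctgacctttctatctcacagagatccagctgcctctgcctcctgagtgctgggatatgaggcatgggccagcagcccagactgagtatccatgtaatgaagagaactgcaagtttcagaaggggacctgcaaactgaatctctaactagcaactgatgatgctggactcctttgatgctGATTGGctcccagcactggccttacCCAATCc

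Because the libraries held unequal shares of Retnla-carrying members, the comparisons were repeated in the members with Ly6c2 and no Retnla, 22 and 27 cells at week 24 and 56 and 12 cells at week 32. In Prog 2304 genes were compared in them, of which 11.2% were higher and 18.3% lower. In Int 2737 genes were compared, of which 9.54% were higher and 12.3% lower. With 12 cells in I-HC32, the values in Int are the less precise ones.

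Several lists took another direction in these cells. In Prog, 6 of 8 compared MHC class II genes were lower in P-HC24 and 0 higher, with a median of -1.11 against 0.44 in all members. H2-Aa stood at 224 CPM in P-LC24 and 21.6 CPM in P-HC24 (-3.38, -4.65 to -2.32), and it was found in 7 and 5 cells. In Int, 4 of 9 were lower and 0 higher, with a median of -0.32 against 0.99, and H2-Aa stood at 697 and 335 CPM. Where the 2 cells with both Ly6c2 and Retnla were added back, 3 of 9 were higher and 1 lower and the median was 0.38. Of all 2822 genes compared with these cells included, 10.2% were higher and 11.5% lower. The MHC class II levels rested on few cells in each library. Of the UMIs of H2-Aa, H2-Ab1, H2-Eb1 and Cd74 together, the 2 highest cells held 65.3% of 539 in P-LC24, and in I-LC32 the 5 highest of 56 cells held 87.3% of 2494. In I-HC32 a single cell held 71.3% of 352. The summed level of these 4 genes in the Ly6c2-carrying cells without Retnla was 1752 CPM in P-LC24 and 261 CPM in P-HC24, and 676 and 177 CPM with the 2 highest cells of each library left out, a setting chosen after seeing the data.

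Chemokine and heat shock genes also depended on the cells with both Ly6c2 and Retnla. In Int, 1 of 5 compared chemokine ligands was higher and 2 lower (median -0.48), the higher one being Ccl2 at 87.7 and 438 CPM (2.32, 1.79 to 2.86). Of 8 heat shock chaperones 1 was higher and 0 lower (median 0.24). With the 2 cells that carried both genes added back, 4 of 8 heat shock chaperones were higher and 0 lower (median 0.54). Of 6 chemokine ligands 1 was higher and 1 lower (median 0.20), beside 10.2% higher and 11.5% lower of all compared genes. The added cell in I-HC32 held 1 UMI of Ly6c2 and 709 UMIs of Retnla. In the members without Ly6c2, 14 in I-LC32 and 23 in I-HC32, 5 of 9 chemokine ligands were higher and 1 lower (median 0.87), beside 10.9% of all compared genes higher and 8.59% lower. There, 5 of 8 heat shock chaperones were higher (median 0.67) and 1 of 10 MHC class II genes was higher and 1 lower (median 0.14). Ccl24 had a log2 ratio of 2.21 in these cells.

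**Figure D3:**
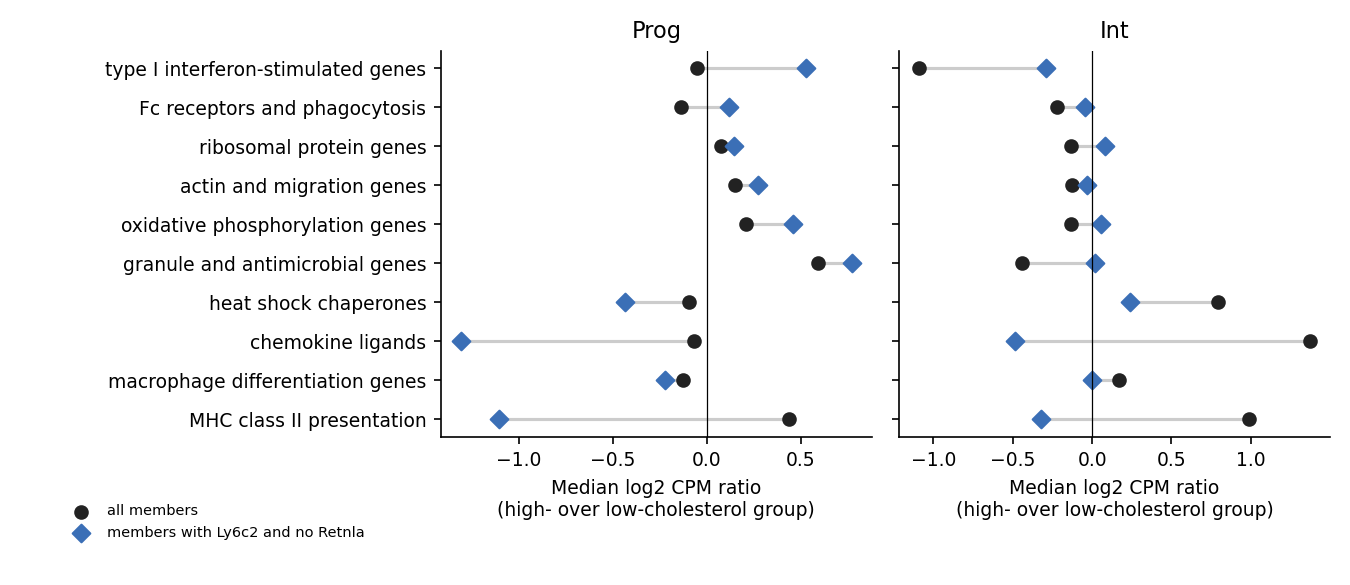
Median log2 CPM ratio of the compared genes of 10 gene lists, high- over low-cholesterol group, in Prog (left) and Int (right), in all members (black circles) and in members with Ly6c2 and no Retnla (blue diamonds). MHC class II moves from 0.44 to -1.11 in Prog and from 0.99 to -0.32 in Int, and interferon-stimulated genes move from -0.05 to 0.53 in Prog and from -1.09 to -0.29 in Int.

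The interferon-stimulated genes differed by week within the Ly6c2-carrying cells without Retnla. In Prog 9 of 21 compared genes were higher in P-HC24 and 0 lower (median 0.53), and in Int 7 of 22 were lower in I-HC32 and 0 higher (median -0.29). Irf7, the master regulator of type I interferon genes, stood at 78 CPM in P-LC24 against 180 in P-HC24 and 141 in I-LC32 against 95.8 in I-HC32. Its log2 ratio was 1.21 (0.52 to 1.95) in Prog and -0.55 (-1.48 to 0.27) in Int. Rtp4 stood at 55.3, 129, 103 and 47.9 CPM, with 1.23 (0.40 to 2.12) and -1.10 (-2.47 to 0.02). P-HC24 was the highest library for both genes, and their Int intervals included no difference.

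**Figure D4:**
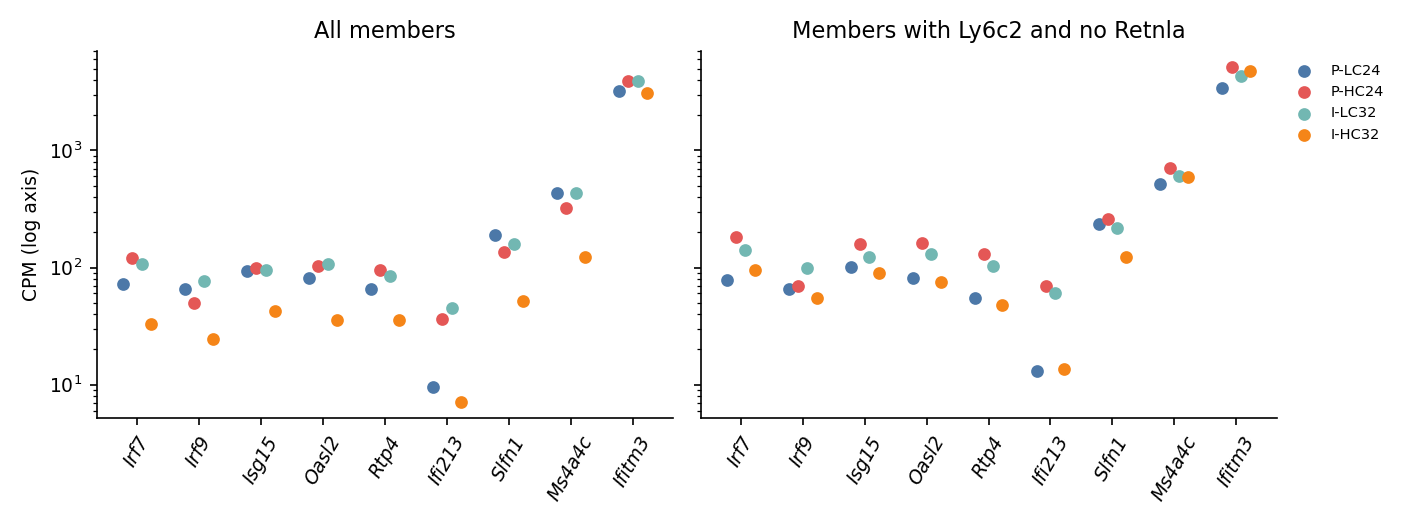
CPM (logarithmic axis) of 9 interferon-stimulated genes in each library, summed over all members (left) and over members with Ly6c2 and no Retnla (right), with 1 point per library and no replicate. I-HC32 is the lowest library on the left for each gene shown, while on the right P-LC24 is lower than I-HC32 for Irf7, Ifi213, Ms4a4c and Ifitm3.

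Other lists also differed in the Ly6c2-carrying cells without Retnla. Of 68 compared genes of oxidative phosphorylation 19 were higher in P-HC24 and 0 lower (median 0.46), and of 12 granule and antimicrobial genes 7 were higher and 0 lower (median 0.77). Proteasome subunits were higher in 6 of 25 and lower in 0 (median 0.41). In Int these lists had medians of 0.06, 0.02 and 0.19. Among single genes, lipoprotein lipase (Lpl) was among those lower in Prog at 393 and 37.7 CPM, and vimentin (Vim), an intermediate filament, was among those higher at 1713 and 3661 CPM. Tppp3, a tubulin-binding protein, was higher in Prog (68.3 and 269 CPM) and lower in Int (190 and 54.8 CPM), the last from 8 UMIs. With the 2 cells that carried both Ly6c2 and Retnla added back, its log2 ratio in Int was -0.60 (-1.34 to 0.07).

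Across weeks, the interferon list was lower in the high-cholesterol group at week 32 than at week 24 in 18 of 23 compared genes and higher in 0 (median -1.04), beside 9.78% of all genes higher and 10.4% lower. In the low-cholesterol group it was higher in 2 and lower in 2 of 25 (median 0.03), beside 10.1% higher and 14.3% lower. MHC class II genes were higher at week 32 in 7 of 11 in the high-cholesterol group (median 0.86) and in 5 of 10 in the low-cholesterol group (median 0.41). Each of these comparisons shares a library with Prog and with Int.

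Markers of other cells were read from whole lists. Patrolling monocyte markers ranged from 554 CPM in I-HC32 to 1262 CPM in P-LC24, with Ace and Treml4 at 0 by the selection and 6 of 12 found in at least 25% of the members of every library. Of 10 Kupffer cell markers, 8 had a UMI in some library and the defining genes Clec4f and Marco had 0. Their summed level ranged from 838 CPM in P-LC24 to 4368 CPM in I-HC32. It stood at 4751 CPM in members without Ly6c2, where C1qa, C1qb, Folr2 and Adgre1 were the detected markers, and at 265 CPM in members with it. Most of the 4751 CPM was C1qa (1803 CPM) and C1qb (2740 CPM), which are also macrophage differentiation genes. Peritoneal macrophage markers ranged from 193 to 739 CPM with Gata6 at 0. The 9 outside the selection stood at 89.5 CPM in members without Ly6c2 and 493 CPM in those with it. Neutrophil markers ranged from 74.4 to 851 CPM with Camp at 0, and were highest in P-HC24, the library where S100a9 was high. Their part in the granule genes was not tested.

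Dendritic cell markers ranged from 185 to 363 CPM, and Xcr1, Siglech and Itgae were at 0 besides Flt3 and Cd209a, which the selection removed. Of 10 dendritic cell markers outside the selection, 4 were found in at least 25% of the members without Ly6c2, namely Batf3, Clec10a, Irf4 and Wdfy4. In the members with Ly6c2 only Wdfy4 was. The summed levels were 409 CPM without Ly6c2 and 171 CPM with it. B cell markers ranged from 112 to 152 CPM, with Cd79a at 0 by the selection, Ighm in 59.7% and Igkc in 38.7% of the members. Platelet markers ranged from 11.4 to 118 CPM with Gp1bb at 0. T cell markers ranged from 22.9 to 157 CPM and NK cell markers from 0 to 26.5 CPM, both highest in P-LC24, and hepatocyte markers from 0 to 7.07 CPM. Haemoglobin and other erythroid transcripts ranged from 61.5 CPM in I-HC32 to 7109 CPM in I-LC32. The part of these transcripts in the comparisons was not tested.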

How the data were processed

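Raw UMI counts of each gene in each barcode, whole numbers, were deposited for 4 libraries, made with Cell Ranger 9.0.1 on GRCm39 per the labels, which also name Seurat 5.3. All 4 matrices were used, and 0 columns of samples were left out. Cells were gated on these counts without removal of doublets, and leaving out the highest Scrublet scores (scanpy 1.11.5, 0.8% per 1000 cells) was an alternative. UMIs were summed over the members of a library and scaled to CPM. Ratios carry exact conditional binomial intervals and shares exact Clopper-Pearson intervals at 95%, which cover counting error only. A gene at 0 UMIs in one library was set to a floor of 3 UMIs, so that its ratio is a bound. The members and the gene lists were chosen with earlier results of these data known. Named genes were the 4 markers, the 8 highest and 8 lowest ratios of each comparison, from each of 26 lists the 2 most abundant and the most different genes, and 5 genes for each pattern over both weeks. For the ratios and patterns, a gene needed 100 UMIs, detection in 20% of the members where it was higher, a level no lower than in other kept cells and an interval without 1. Haemoglobin, antigen receptor, mitochondrial and unnamed genes were left out. Genes named for the Ly6c2 and Retnla division, within the Ly6c2-carrying cells and in the interferon plot were chosen after their values were seen. There were 14 marker lists and 19 alternatives, including TMM (edgeR 4.0.16, R 4.3.3). The intervals were tested on simulated sums drawn without cells. That test cannot show how they hold where few cells carry most UMIs of a gene. The software was matplotlib 3.10.9, pandas 2.3.3, scipy 1.17.1, numpy 2.4.6 and Python 3.11.15. A few genes are not reported here.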

Additional observations from a re-analysis of the deposited data

Results flagged for a closer look

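For 7 genes named by rule, the log2 CPM ratio of all members pointed one way in Prog and the other way in Int, with counting intervals that leave out a ratio of 1 at both weeks. With 1 library per condition, the difference between Prog and Int was not tested.

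Irf7, the regulator of interferon genes, had a log2 ratio of 0.74 in Prog and -1.70 in Int. In the members with Ly6c2 and no Retnla its ratios were 1.21 and -0.55. Olfm1, a secreted olfactomedin protein, had 1.26 in Prog and -0.65 in Int.

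The other 5 were lower in Prog and higher in Int. Id3, an inhibitor of basic helix-loop-helix factors, had -1.20 and 1.41, but 60.3% of its UMIs in I-HC32 came from 1 cell. Slc16a10, an amino acid transporter, had -1.34 and 1.07, with 40.7% of its I-HC32 UMIs in 1 cell. Lpl had -1.03 and 0.68, with 54.0% of its P-LC24 UMIs in 1 cell, and in the members with Ly6c2 and no Retnla it had -3.38 and -4.33 (-7.39 to -2.46), the latter from 2 UMIs in I-HC32. Apobec1, an RNA-editing cytidine deaminase, had -0.72 and 0.66, and Hip1, an endocytosis adaptor, had -0.64 and 0.66.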

How the results depend on the processing

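With 1 library per condition no error between libraries exists, and small sets limit the values most, with 12 Ly6c2-carrying cells without Retnla in I-HC32 and 5 members without Ly6c2 in P-LC24. No paired analysis was possible because each condition has 1 library and no result comes from a test. Of the values for shares and counts of genes under other settings, 73 stayed within the counting interval or 1.5 times and 29 moved. Of those for 32 single genes and 14 medians of lists, 774 stayed near their value, 92 moved and 1 reversed. A value could count as reversed only where the reported ratio was at least 1.5-fold. Most list medians in Prog were smaller and so could not count as reversed. A list median could also take the other sign and still count as near its value. The reversed one was C1qa in Prog at -4.27 (-9.66 to -1.58) in members with Ly6c2. This value rested on 1 cell with C1qa in P-LC24 and 1 in P-HC24, at 52.0 and 2.69 CPM over the members with Ly6c2. The limits of 1.2-fold and 2-fold could not move a gene ratio or a list median. The gene filters could not move a gene ratio, so part of the 774 was fixed in advance. In members with Ly6c2, 30 of these values moved, 1 reversed and 8 stayed. A list median took the other sign in 28 values, mostly from near 0 in Prog, among them MHC class II in Prog at -1.11 in members with Ly6c2, against 0.44. The log2 ratio of shares in Prog was 1.21 with a mitochondrial limit of 5% and -0.36 on cells thinned to 3000 UMIs. In Int it was -2.12 in members with Ly6c2 and -2.09 among cells with Csf1r and no Cd79a. In Prog the latter settings gave -0.13 and -0.34, a change of sign that did not count as moved. In members with Ly6c2, 422 genes were lower in Prog, and 288 were higher and 324 lower in Int. TMM gave 611 higher and 450 lower genes in Prog, and median-of-ratios 588 and 475. A filter of 20 UMIs gave 848 and 1481 in Prog and 929 and 1389 in Int, and one of 200 UMIs gave 80 and 115, and 129 and 141. A limit of 1.2-fold gave 931 and 1459, and 1099 and 1636, and one of 2-fold gave 144 and 221, and 197 and 255. Among genes at least as high in the members as in all other cells, 415 were lower in Prog and 454 in Int. The settings for members with Ly6c2 and for the gate without Ace and Treml4 or without Flt3 and Cd209a were chosen after seeing the data. The cause of each move was not tested beyond the fewer or more cells and genes that a setting holds.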

Other observations

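The 14 members with neither Ly6c2 nor Retnla had other leading genes. They numbered 4 in P-LC24, as many in P-HC24, and 5 in I-LC32 against 1 in I-HC32, at a median of 15121.5 UMIs. Summed over libraries they held Apoe at 7058 CPM and Trem2, a receptor of lipid-associated macrophages, at 373 CPM, against 447 and 19.1 CPM in the members with Retnla and no Ly6c2. Summed in the same way, their H2-Ab1 stood at 4498 CPM, against 4772 CPM in the Retnla-carrying members, and their C1qa at 952 CPM. The 14 cells were unlike each other, so these sums need not describe each cell. Their MHC class II ran from 0 per 10000 UMIs in a P-HC24 barcode of 514 UMIs to 631 in an I-LC32 cell. Another I-LC32 cell held 53 UMIs of Chil3 and MHC class II at 11.9 per 10000.

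Retnla was also found in cells next to the members. In cells with Flt3 or Cd209a, it was found in 0 of 30 in P-LC24, with an upper exact bound of 11.6%, against 28.6% of 28 in P-HC24, and in 8.89% of 45 in I-LC32 against 25.8% of 31 in I-HC32. In cells with Ace or Treml4 it was found in 0.847%, 9.73%, 0% and 12.3%, of 118, 113, 95 and 57 cells. In cells with at least 10 UMIs of Prg4 it stood at 69.2 to 253 CPM, against 2052 to 26768 CPM in the members. In cells with Flt3 or Cd209a and in those with Ace or Treml4, the shares were higher in the high-cholesterol library at each week. Their exact intervals overlapped in 1 case, the cells with Flt3 or Cd209a at week 32 (2.48 to 21.2 and 11.9 to 44.6).

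Genes of lipid handling were divided within the members. Of 13 compared genes for lipid uptake and droplets 3 were higher and 4 lower in Prog, beside 9.87% and 18.6% of all compared genes. Of 15 in Int 4 were higher and 2 lower, beside 10.7% and 15.2%. The log2 ratios of the list ran from -1.31 to 1.10 in Prog and from -0.90 to 1.55 in Int. Cd36 stood at 161 CPM in P-LC24 against 345 in P-HC24 and 212 in I-LC32 against 621 in I-HC32, and Plin2, a lipid droplet coat protein, at 178, 296, 403 and 499 CPM in that order. Of 9 compared targets of the liver X receptor, 1 was higher and 0 lower in Prog (median -0.20). In Int 2 of 9 were higher and 3 lower (median 0.29). Pltp, the target with the highest ratio at both weeks, stood at 190, 682, 407 and 1373 CPM. Cd36 and Pltp were both among the genes higher in the members without Ly6c2. Of genes for sterol synthesis and uptake only 2 had enough UMIs in Prog and 4 in Int.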
